A study of Homo sapiens with 18 samples.

Results

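The VPS genes and the sorting nexins (SNX genes) encode much of the machinery that moves membrane and cargo between endosomes, the Golgi and lysosomes. They were taken here by name, as every row of the count table whose symbol starts with VPS or SNX followed by a digit. That rule gave 65 of the 20263 genes in the table, 35 VPS and 30 SNX, all protein-coding. Of these, 62 had enough counts to be tested, among 14234 tested genes in all. The study sequenced RNA from 3 human cancer cell lines, the hepatocellular carcinoma line MHCC-97H, the breast line MDA-MB-231 and the colon line HCT-116, all labelled wild type. Each line received the solvent DMSO or the SF3B1-binding splicing modulator H3B-8800 at 20 nM for 24 h, and every culture was in high-glucose medium with 10% serum. The 6 groups held 3 libraries each, 18 in all, and the labels do not say whether the 3 came from separate cultures, so p-values measure only the spread between these libraries.

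As background, most VPS genes carry the names of yeast mutants that missorted vacuolar proteins, and their products work in fixed complexes. Retromer and retriever return receptors from endosomes, CORVET and HOPS tether endosomes and lysosomes before fusion, and GARP and EARP tether carriers that return to the Golgi or recycle. ESCRT complexes sort ubiquitinated cargo into vesicles inside endosomes. The VPS13 proteins are long bridges that carry lipids between organelles. Sorting nexins share the PX domain, which in many of them binds phosphoinositides. They are grouped by what else they carry: a membrane-curving BAR domain, a FERM domain, an RGS domain, or none of these.

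The libraries held 28232315 to 41488278 counts, of which the 65 genes made up 0.319 to 0.353%. Levels are given as CPM, the share of each library's TMM-adjusted size, and per length as RPKM, CPM per kilobase of exon. Exonic length merged the exons of all annotated transcripts of a gene, so it can exceed the length of the transcripts expressed. The labels of MDA-MB-231 and MHCC-97H did not match the marker genes of their lines. Of 6 intestinal markers, 5 averaged at least 1 CPM in the libraries labelled MDA-MB-231, where the 6 summed to between 1596 and 1660 CPM, close to the 1612 to 1695 CPM under the HCT-116 label. All 6 were at 0 under the MHCC-97H label. Of 6 liver markers, 5 were at 0 in all libraries labelled MHCC-97H, and the sum reached at most 0.207 CPM. The liver sum was 24.5 to 40.3 CPM under MDA-MB-231 and 31.1 to 39.0 CPM under HCT-116. There ALB averaged 17.2 and 21.2 CPM, and APOB 10.0 and 10.6 CPM. Of 6 mesenchymal and breast basal markers, VIM and KRT17 averaged 1187 and 1513 CPM under the MHCC-97H label, against 19.6 and 0.241 CPM under MDA-MB-231 and 22.1 and 0.188 CPM under HCT-116. TWIST1 averaged 11.7 CPM under MHCC-97H and 0 under the other labels. CAV1 and CD44 went the other way, at 112 and 125 CPM under MHCC-97H. They averaged 5759 and 197 CPM under MDA-MB-231, and 5840 and 187 CPM under HCT-116. SPARC reached at most 0.0473 CPM under any label. The sum of that list was 2667 to 3273 CPM under MHCC-97H. It was 5714 to 6303 CPM under MDA-MB-231 and 5719 to 6434 CPM under HCT-116, nearly all of it CAV1 under these last labels. DMSO libraries of the MDA-MB-231 label differed from those of the HCT-116 label in 5 of the 14234 tested genes, none of them a VPS or SNX gene. Groups are therefore named by the line on their label, and libraries carrying the breast or the colon label are not treated as evidence from separate lines.

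The main comparison asked which of these genes differed after H3B-8800. Under the MHCC-97H label 31 of the 62 tested genes were called, 16 higher and 15 lower, at an adjusted p under 0.05 (edgeR quasi-likelihood test, adjusted over all tested genes). Among all tested genes 27.6% were called under this label, 12.9% higher and 14.7% lower. The median log2 change was -0.05 over the VPS and SNX genes and -0.06 over all tested genes, so the set moved in both directions around the middle of the table. By median the rises were the larger. The 16 genes called higher had a median log2 change of 0.59, with a range from 0.19 to 1.44. The 15 called lower had a median of -0.26, with a range from -2.17 (SNX15) to -0.14. In bulk RNA, fewer cells of a type and less RNA per cell cannot be told apart.

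**Figure D1:**
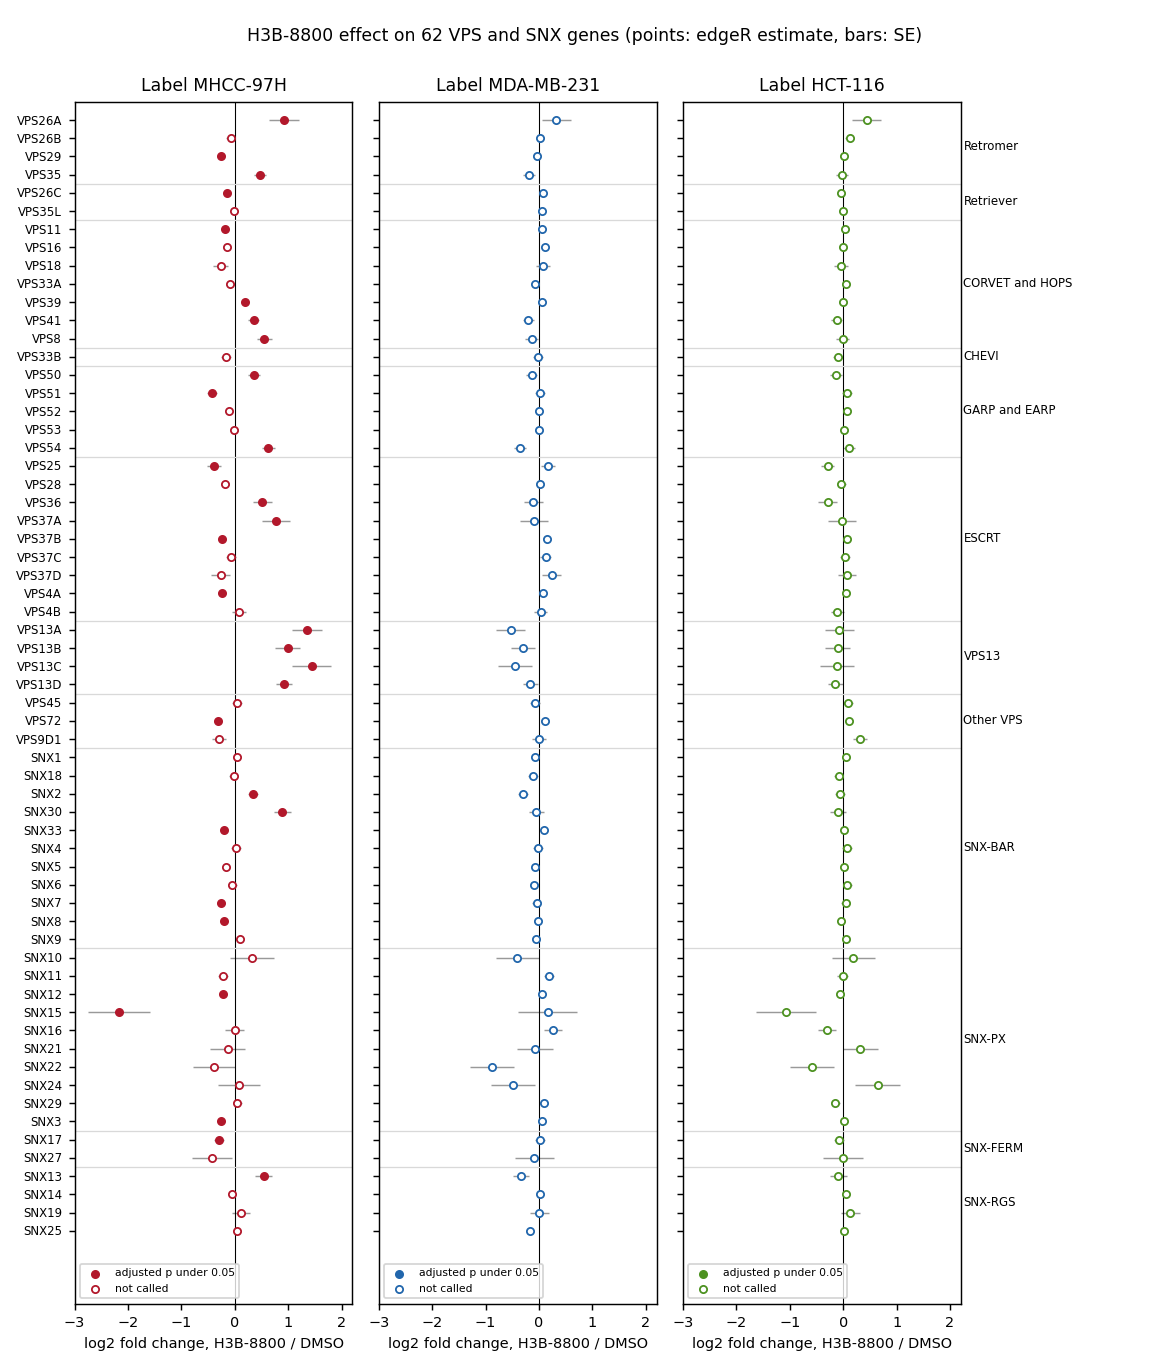
Log2 fold change of H3B-8800 against DMSO (horizontal axis) for the 62 tested VPS and SNX genes, grouped by complex, under each line label. Points are edgeR estimates and bars are standard errors, with filled points at an adjusted p under 0.05. All 4 VPS13 genes lie to the right under the MHCC-97H label, SNX15 lies far to the left, and no point is filled under the other labels.

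The number of calls depended on single libraries and on scaling. It was 20 without DMSO replicate 2 of the MHCC-97H label, and 16 without DMSO replicate 3, without H3B-8800 replicate 1 or without H3B-8800 replicate 2. Over all tested genes the calls in the same order were 2439, 2141, 2715 and 2336, beside 3922 with every library. Scaling by library totals shifted the median of all genes from -0.06 to 0.04. It gave 18 VPS and SNX genes higher and 3 lower, beside 2501 and 346 of all 14234 tested genes. Upper-quartile scaling gave 16 higher and 8 lower, beside 1943 and 1301 of all. No called gene changed direction under any of these scalings. Treated and control libraries did not overlap for 38 of the 62 genes, 18 with all treated libraries above and 20 below, beside 47.6% of all tested genes (19.6% above and 28% below).

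Of the 31 called genes, 11 kept their call whichever single library of the MHCC-97H label was left out, and 20 lost it at least once, with adjusted p from 0.0511 to 0.192. Leaving out DMSO replicate 1 ended the calls of VPS26C, VPS36, VPS37A and VPS39. Without DMSO replicate 2 the calls of SNX7, SNX8, SNX13, SNX17, VPS25, VPS26A, VPS26C, VPS36, VPS37A, VPS39 and VPS50 ended. Without DMSO replicate 3 those of SNX2, SNX7, SNX8, SNX13, SNX17, VPS8, VPS11, VPS13C, VPS25, VPS26A, VPS29, VPS36, VPS37A, VPS37B, VPS39 and VPS41 ended. H3B-8800 replicates 1 and 2 each decided SNX7, SNX8, SNX13, SNX15, SNX17, VPS11, VPS25, VPS26A, VPS26C, VPS36, VPS37A, VPS37B, VPS41 and VPS50, with VPS39 added for replicate 1 and SNX12 for replicate 2. H3B-8800 replicate 3 decided SNX2, SNX7, SNX8, SNX17, VPS25, VPS26C, VPS37B and VPS39. VPS26C, VPS36 and VPS37A also moved just past the threshold without single libraries of the other labels, with adjusted p from 0.0502 to 0.0559.

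The VPS13 genes showed the largest rises. VPS13A, the chorein gene mutated in chorea-acanthocytosis, went in MHCC-97H libraries from 12.3, 10.9 and 7.85 CPM with DMSO to 28.0, 30.8 and 20.4 CPM with H3B-8800. VPS13C, whose loss causes an early-onset form of Parkinson disease, went from 3.44, 2.31 and 2.38 to 7.11, 7.45 and 7.53 CPM. In both, the lowest treated library lay well above the highest control. VPS13B, the Cohen syndrome gene, stood at 15.7, 11.1 and 11.4 CPM in DMSO and at 24.8, 24.8 and 26.3 CPM after treatment. VPS13D, which acts at mitochondria and peroxisomes, went from 12.6, 8.65 and 10.2 to 20.6, 19.0 and 20.0 CPM. None of the 4 genes had a treated library inside the control range.

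The log2 changes were 1.35 ± 0.28 (SE, n = 3 against 3, edgeR adjusted p = 0.00449) for VPS13A and 1.44 ± 0.37 (adjusted p = 0.0117) for VPS13C. They were 0.99 ± 0.23 (adjusted p = 0.00797) for VPS13B and 0.93 ± 0.15 (adjusted p = 0.00172) for VPS13D, the smallest adjusted p of the whole set. VPS13C rested on few counts, 57 to 104 per DMSO library, and its adjusted p was 0.0532 without DMSO replicate 3 and 0.14 with limma voom.

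Under the other labels the same genes stood higher in DMSO, and none of their changes was called. VPS13A stood at 25.4, 25.3 and 21.1 CPM in DMSO and 19.7, 17.0 and 13.0 after H3B-8800 under the MDA-MB-231 label, and at 24.2, 12.9 and 20.7 against 18.3, 11.9 and 24.7 under HCT-116. VPS13B stood at 46.8, 41.9 and 36.3 against 37.7, 30.8 and 33.0 CPM, and at 47.0, 26.7 and 42.2 against 42.1, 23.1 and 42.6. VPS13D stood at 44.2, 39.4 and 41.6 against 38.0, 38.4 and 35.5 CPM, and at 43.1, 33.8 and 45.1 against 39.6, 28.7 and 41.9. Under MDA-MB-231 every treated library of VPS13A, VPS13C and VPS13D was at or below the lowest control of its gene. VPS13C ranged there from 24.5 to 44.7 CPM. Under HCT-116, replicate 2 was the low library of all 4 genes in both arms. For VPS13C it held 21.1 CPM in DMSO and 16.3 after H3B-8800, against 42.2 to 45.6 in the other 4 libraries of that label.

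**Figure D2:**
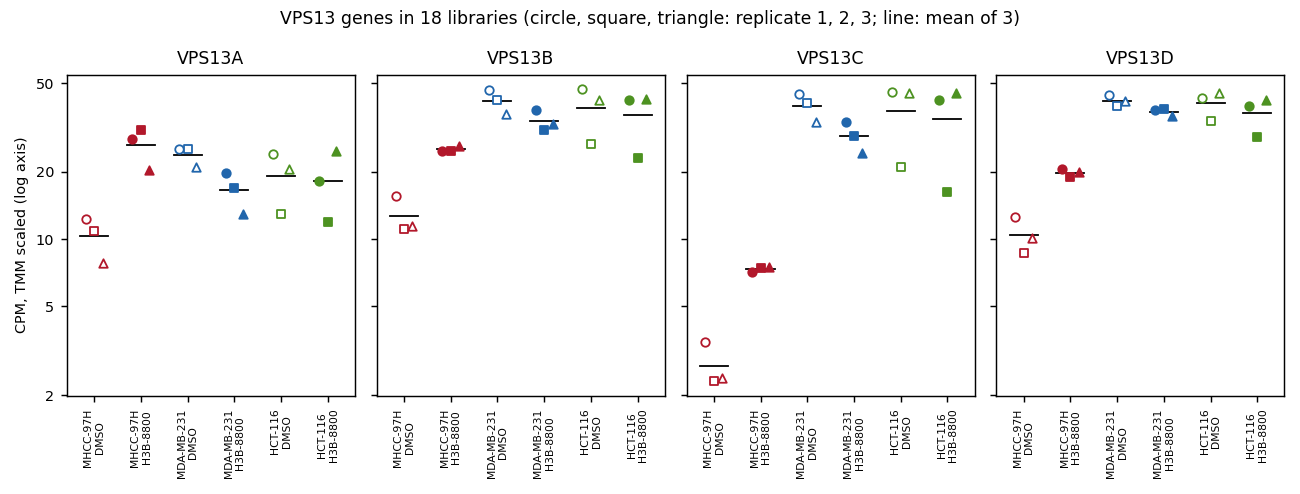
CPM (log axis) of VPS13A, VPS13B, VPS13C and VPS13D in each of the 18 libraries, open symbols for DMSO and filled for H3B-8800, with shapes for the replicate number and a line at the mean of 3. Treated libraries labelled MHCC-97H lie above their controls in each panel, and replicate 2 is the lowest square under HCT-116 in both arms.

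The stretches just upstream of the start sites of 3 VPS13 genes are shown because these genes moved together. They come from the RefSeq promoter table (GRCh38.p14), which held 48 of the 65 genes, and each ends at the last base before the annotated transcript. Capitals mark the GC box GGGCGG, searched on both strands.
VPS13A, chr9:77177284-77177352, plus strand: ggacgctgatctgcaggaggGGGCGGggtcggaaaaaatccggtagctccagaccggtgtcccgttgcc
VPS13C, chr15:62060474-62060697, minus strand: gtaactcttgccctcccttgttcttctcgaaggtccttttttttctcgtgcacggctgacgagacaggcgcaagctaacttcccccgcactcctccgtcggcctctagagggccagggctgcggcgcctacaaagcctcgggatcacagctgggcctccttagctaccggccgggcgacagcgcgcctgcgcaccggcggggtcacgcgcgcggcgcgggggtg
VPS13D, chr1:12229780-12230029, plus strand: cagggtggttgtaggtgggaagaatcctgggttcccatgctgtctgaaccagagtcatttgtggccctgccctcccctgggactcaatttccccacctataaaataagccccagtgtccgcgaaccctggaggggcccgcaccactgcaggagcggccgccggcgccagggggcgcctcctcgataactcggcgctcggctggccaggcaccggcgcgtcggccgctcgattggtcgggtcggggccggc
These stretches were GC-rich, at 65.2, 67 and 67.2% GC, while the transcripts of the same genes had 37.1, 38.1 and 46.7%. Only the VPS13A stretch held the GC box. In the full promoter windows GGGCGG was found for 33 of the 48 genes (68.8%), beside 42.3% of all 27305 promoters in the table. CCAAT was found for 27.1% beside 33%, and CACGTG, the core of the CLEAR element read by TFEB, for 8.33% beside 6.49%, each searched on both strands. The comparison set was every promoter of that table, not matched to these genes in gene type or expression. Among the members with a promoter in the table, the GC box was in 7 of 12 called higher (58.3%) and 7 of 13 called lower (53.8%), CCAAT in 5 and 5, and CACGTG in 0 and 3. No motif contains another, though neighbouring matches may share end bases, and a match is a description of letters only.

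Retromer was split. VPS35, its scaffold, went from 154, 112 and 121 CPM in DMSO to 188, 177 and 171 after H3B-8800 under MHCC-97H, with every treated library above the controls. Under MDA-MB-231 it stood at 259.5, 250.4 and 231 against 240.4, 216 and 194 CPM, and under HCT-116 at 239, 221 and 259 against 257, 212 and 242, with overlap in both. VPS26A, the arrestin-fold subunit that joins VPS35 to membrane adaptors, went from 59.2, 62.2 and 52.1 to 108, 116 and 104 CPM under MHCC-97H. VPS35 rose by 0.47 ± 0.11 (SE, edgeR adjusted p = 0.00754) and VPS26A by 0.92 ± 0.27 (adjusted p = 0.0235) on the log2 scale. VPS29, the small subunit shared with retriever, fell by 0.26 ± 0.07 (adjusted p = 0.01). The paralog VPS26B stood at 43.6, 40.5 and 48.5 CPM against 39.8, 42.7 and 43.1 and was not called. The VPS26A call was lost without DMSO replicate 2 or 3, or without H3B-8800 replicate 1 or 2, with adjusted p of 0.0528 to 0.0854. Removing from each library a trend of log2 CPM deviations on GC content and length ended the calls of VPS26A (0.72, adjusted p = 0.139) and VPS35 (0.08, adjusted p = 0.528).

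VPS26A also varied within groups under the other labels, in a way that single estimates of its change do not show. It stood at 70.2, 37.6 and 36.2 CPM in DMSO and 74.2, 39.8 and 66.4 after H3B-8800 under MDA-MB-231, and at 38.6, 35.2 and 35.8 against 38.6, 70.6 and 39.6 under HCT-116. The 12 libraries thus lay either at 35.2 to 39.8 or at 66.4 to 74.2 CPM. In retriever, which recycles integrins together with SNX17, VPS26C fell by 0.14 ± 0.05 (edgeR adjusted p = 0.0399), while VPS35L changed by -0.01 ± 0.07.

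CORVET and HOPS share a core of VPS11, VPS16, VPS18 and VPS33A. To it CORVET adds VPS8 and TGFBRAP1, and HOPS adds VPS39 and VPS41. TGFBRAP1 is not a member by name and was read with the partner genes. The VPS subunits particular to each complex were called higher under MHCC-97H and the core subunits were lower or not called. VPS8 stood at 5.60, 4.55 and 3.89 CPM in DMSO and 6.98, 7.77 and 5.82 after H3B-8800. Under MDA-MB-231 it stood at 35.3, 30.7 and 28.8 against 29.7, 29.7 and 26.7 CPM, and under HCT-116 at 32.9, 28.1 and 30.4 against 31.3, 27.5 and 31.9. VPS8 thus did not overlap between arms under MHCC-97H, where it was lowest, and overlapped under the other labels.

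VPS8 rose by 0.55 ± 0.14 (SE, edgeR adjusted p = 0.00992), VPS41 by 0.35 ± 0.11 (adjusted p = 0.0241) and VPS39 by 0.19 ± 0.06 (adjusted p = 0.025). VPS11 fell by 0.19 ± 0.06 (adjusted p = 0.0192). The other core genes, VPS16, VPS18 and VPS33A, changed by -0.15, -0.27 and -0.09 without a call. VPS33B, the core paralog that works with VIPAS39 in the CHEVI complex, changed by -0.16 ± 0.09. The VPS8 call was lost without DMSO replicate 3 (adjusted p = 0.0541), and VPS41 lost its call without DMSO replicate 3 or either of H3B-8800 replicates 1 and 2, where its adjusted p ran from 0.0592 to 0.114. With that trend removed, none of these calls stood: the log2 changes were 0.14 for VPS8 (adjusted p = 0.45), 0.10 for VPS39 (adjusted p = 0.37), 0.01 for VPS41 (adjusted p = 0.989) and -0.12 for VPS11 (adjusted p = 0.122).

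In GARP and EARP, 2 subunits were called higher and 1 lower. VPS54, which makes the complex GARP, stood at 7.32, 6.13 and 7.10 CPM in DMSO under MHCC-97H and 11.6, 9.81 and 10.4 after treatment. Under MDA-MB-231 it went the other way, 35.6, 29.9 and 34.9 against 29.1, 26.5 and 23.3 CPM, again without overlap. Under HCT-116 it stood at 30.7, 27.0 and 31.0 against 33.8, 28.0 and 34.3 CPM. VPS54 rose by 0.63 ± 0.12 under MHCC-97H (edgeR adjusted p = 0.00289), and its estimate under MDA-MB-231 was -0.35 ± 0.11 (adjusted p = 0.545), not a call.

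VPS51, the subunit common to both complexes, stood at 143, 154 and 147 CPM in DMSO under MHCC-97H and 114, 104 and 113 after H3B-8800. It stood at 99.6, 90.6 and 96.6 against 88.6, 91.2 and 111 CPM under MDA-MB-231, and at 88.0, 101 and 89.9 against 87.7, 111 and 95.0 under HCT-116. The fall under MHCC-97H was 0.43 ± 0.09 (edgeR adjusted p = 0.00558), and those treated libraries still lay above most libraries of the other labels. VPS50, which replaces VPS54 in EARP, rose by 0.36 ± 0.11 (adjusted p = 0.0272), and stood at -0.07 (adjusted p = 0.841) with the trend in GC and length removed. VPS52 and VPS53, also shared by both complexes, changed by -0.11 and -0.01 without a call.

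Among ESCRT genes, 2 of 9 were called higher and 3 lower. VPS4A, an ATPase that disassembles ESCRT-III, stood at 169, 179 and 173 CPM in DMSO under MHCC-97H and 146, 139.5 and 153 after H3B-8800. It stood at 99.5, 103 and 109 against 110.2, 109.6 and 109.6 CPM under MDA-MB-231, where the treated libraries were the higher, and at 98.1, 109.7 and 108 against 103, 117 and 108 under HCT-116. VPS4A fell by 0.25 ± 0.06 under MHCC-97H (edgeR adjusted p = 0.00789), and its paralog VPS4B, at 9.44, 9.18 and 7.97 CPM against 8.70, 10.0 and 9.32, was not called.

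VPS37A, an ESCRT-I subunit, rose by 0.77 ± 0.26 (edgeR adjusted p = 0.0421), and its paralog VPS37B fell by 0.24 ± 0.08 (adjusted p = 0.0328). VPS37C and VPS37D changed by -0.08 and -0.27 without a call. Of the ESCRT-II subunits, VPS36 rose by 0.51 ± 0.18 (adjusted p = 0.0453) and VPS25 fell by 0.38 ± 0.13 (adjusted p = 0.0371). VPS28, the ESCRT-I subunit that binds ESCRT-II, changed by -0.18 ± 0.08 (adjusted p = 0.101). Without the GC and length trend no ESCRT call stood, at log2 changes of 0.47 for VPS37A (adjusted p = 0.348), -0.11 for VPS37B (adjusted p = 0.294), 0.17 for VPS36 (adjusted p = 0.405), -0.19 for VPS25 (adjusted p = 0.325) and -0.13 for VPS4A (adjusted p = 0.0694).

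VPS72 carries a VPS name but works in the nucleus, as a histone H2A.Z chaperone in the SRCAP and TIP60 complexes. It stood at 96.2, 110.3 and 109.8 CPM in DMSO under MHCC-97H and 82.8, 85.0 and 86.1 after H3B-8800. Under MDA-MB-231 it stood at 87.5, 88.0 and 87.9 against 92.9, 101 and 92.4 CPM, the opposite order without overlap, and under HCT-116 at 86.8, 90.1 and 88.4 against 86.0, 97.7 and 102. The fall under MHCC-97H was 0.32 ± 0.07 (edgeR adjusted p = 0.00449). VPS45, a regulator of SNARE assembly, and VPS9D1 changed by 0.03 and -0.30 without a call.

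Of the 11 tested SNX-BAR genes, which bend endosomal membrane into tubules, 2 were called higher and 3 lower. SNX30, which acts with SNX4 in recycling and autophagy, stood at 15.0, 10.9 and 9.85 CPM in DMSO under MHCC-97H and 22.7, 21.2 and 22.4 after H3B-8800. It stood at 68.9, 68.3 and 66.3 against 68.2, 65.5 and 63.2 CPM under MDA-MB-231, and at 76.0, 58.2 and 66.8 against 71.4, 48.0 and 68.6 under HCT-116. SNX30 rose by 0.89 ± 0.16 under MHCC-97H (edgeR adjusted p = 0.00219) and stayed far below its level under the other labels.

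SNX33, an SH3-domain sorting nexin that acts with dynamin, was the most abundant member under MHCC-97H. It stood at 1097, 1132 and 1158 CPM in DMSO and 989.6, 959.7 and 989 after H3B-8800, against 79.4 to 91.7 CPM in the 12 libraries of the other labels. It stood at 81.0, 79.4 and 80.6 against 82.8, 82.6 and 91.7 CPM under MDA-MB-231, and at 85.2, 89.7 and 82.9 against 86.3, 90.3 and 83.2 under HCT-116. The fall under MHCC-97H was 0.20 ± 0.05 (edgeR adjusted p = 0.00715), small beside the gap between labels.

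SNX2, which with SNX1, SNX5 and SNX6 forms the ESCPE-1 coat, rose by 0.34 ± 0.10 (edgeR adjusted p = 0.0168). SNX7, a relative of SNX30, fell by 0.26 ± 0.08 (adjusted p = 0.0303) and SNX8 by 0.21 ± 0.07 (adjusted p = 0.0331). The 6 members without a call, SNX9, SNX6, SNX1, SNX5, SNX4 and SNX18, lay between -0.17 and 0.10. The 3 other ESCPE-1 genes are among them. Taking out the trend of GC and length left SNX2 at 0.14 (adjusted p = 0.216) and SNX8 at -0.04 (adjusted p = 0.673), neither a call.

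SNX3 and SNX12, close paralogs that consist of little more than a PX domain, both fell. SNX3, the adaptor through which retromer returns the Wnt carrier Wntless, stood at 199, 208 and 213 CPM in DMSO under MHCC-97H and 169, 176 and 172 after H3B-8800. It stood at 105, 108 and 114 against 115, 115 and 111 CPM under MDA-MB-231, and at 101, 114 and 106 against 103, 111 and 113 under HCT-116. SNX3 fell by 0.26 ± 0.05 (edgeR adjusted p = 0.00407) and SNX12 by 0.23 ± 0.06 (adjusted p = 0.0129), each with no overlap between arms. The SNX12 call ended once the GC and length trend was removed (-0.05, adjusted p = 0.554). In the group without a BAR, FERM or RGS domain, 7 tested genes had no call. They were SNX10, SNX11, SNX16, SNX21, SNX22, SNX24 and SNX29, with log2 changes from -0.39 to 0.32.

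SNX15, a PX protein with a MIT domain, had the largest estimate of the set, and that estimate depended on how reads were shared with a second gene. SNX15 stood at 44.6, 31.4 and 51.4 CPM in DMSO under MHCC-97H and 5.70, 4.56 and 18.1 after H3B-8800, a fall of 2.17 ± 0.58 (edgeR adjusted p = 0.014). The readthrough gene ARL2-SNX15, whose transcript runs from the neighbouring ARL2 gene into SNX15, stood at 10.6, 2.52 and 4.48 CPM in DMSO and 22.8, 54.2 and 9.83 after treatment. Its own change was 2.30 ± 1.47 (adjusted p = 0.282), not a call. The share of the summed counts assigned to ARL2-SNX15 was 19.2, 7.43 and 8.01% in DMSO and 80.0, 92.3 and 35.2% after H3B-8800.

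Added together, the 2 genes gave 55.2, 33.9 and 55.9 CPM in DMSO and 28.5, 58.8 and 27.9 CPM after H3B-8800, and the arms overlapped. Counted as a single gene, the change was -0.33 ± 0.36 (edgeR adjusted p = 0.54), so the SNX15 call ended. The SNX15 call alone was also lost without H3B-8800 replicate 1 or replicate 2 (adjusted p = 0.056 and 0.0587). Outside the MHCC-97H label ARL2-SNX15 was at 0 in 10 of 12 libraries. The exceptions were H3B-8800 replicate 2 under MDA-MB-231, with 0.269 CPM, and H3B-8800 replicate 2 under HCT-116, with 17.2 CPM. In that last library SNX15 itself stood at 3.29 CPM, while the other libraries of that label held 14.2 to 32.9 CPM.

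The sequences that the genes share, and the junction that tells them apart, are shown because a short read can be assigned only where they differ. In GENCODE 29 the transcript ARL2-SNX15-201 (chr11:65014182-65040570, plus strand) is annotated as a target of nonsense-mediated decay. It has 11 exons and 2392 bases, of which 1937 are shared with SNX15-202, and 6 exons are identical in both. The first line below is exon 3 of SNX15-202 (chr11:65032431-65032551), which both transcripts contain in full. The second is the junction present in the readthrough transcript, with ARL2 exon bases in lower case (chr11:65018704-65018733) and the following readthrough exon in capitals (chr11:65027318-65027347).
SNX15 exon 3: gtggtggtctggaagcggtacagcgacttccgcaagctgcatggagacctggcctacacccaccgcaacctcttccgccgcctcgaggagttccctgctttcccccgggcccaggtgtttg
ARL2-SNX15 junction: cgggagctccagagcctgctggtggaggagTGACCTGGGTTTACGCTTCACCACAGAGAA

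**Figure D3:**
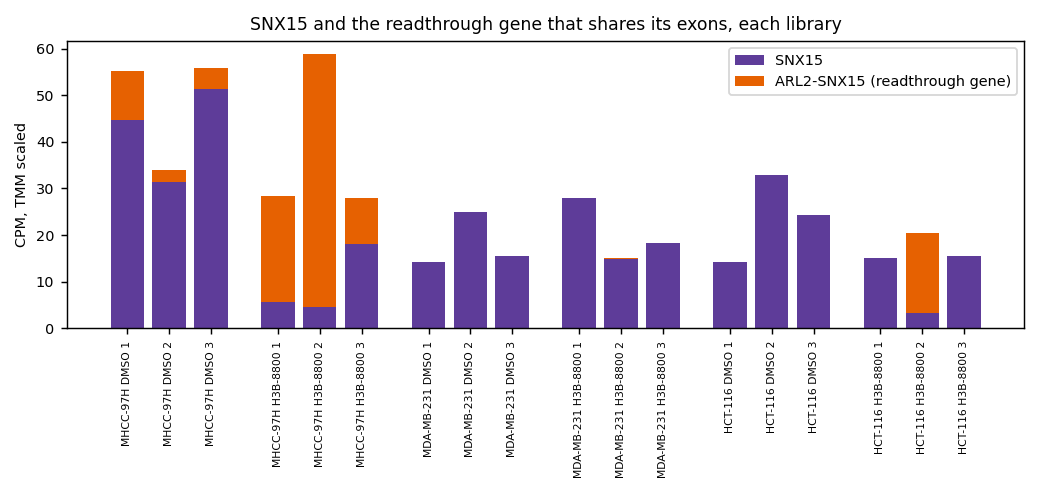
CPM of SNX15 and of the readthrough gene ARL2-SNX15, stacked, in each of the 18 libraries. Under the MHCC-97H label the readthrough gene holds most of the sum in H3B-8800 replicates 1 and 2, and outside that label it is visible in H3B-8800 replicate 2 of HCT-116.

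SNX17 and SNX27 carry FERM domains and select cargo for retriever and retromer. SNX17 fell by 0.29 ± 0.10 (edgeR adjusted p = 0.0357). SNX27 held 44.4, 37.7 and 32.0 CPM in DMSO and 16.4, 19.4 and 48.9 after H3B-8800 under MHCC-97H, so that 2 treated libraries lay below every control and 1 above, and it was not called (-0.43 ± 0.38, adjusted p = 0.433). Among the RGS-domain nexins, SNX13, which sits at contacts of the endoplasmic reticulum, rose by 0.54 ± 0.16 (adjusted p = 0.0207). Once GC and length were accounted for, SNX13 was at -0.00129 (adjusted p = 1) and SNX17 at -0.09 (adjusted p = 0.505). SNX14, SNX19 and SNX25 changed by -0.04, 0.12 and 0.05 without a call. The remaining 3 sorting nexins were hardly detected: SNX20 had 8 counts in the 18 libraries together, SNX31 had 9 and SNX32 had 0, which allows up to 0.00473 CPM (3 counts, counting error only).

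None of the 62 genes was called under MDA-MB-231 or under HCT-116, by edgeR, DESeq2 or limma voom, and edgeR called 0.0351% of all tested genes under each of these labels. At an unadjusted p under 0.05 there were 5 under MDA-MB-231 (8.06%, beside 7.19% of all genes), all lower (beside 3.6% of all genes lower): VPS54, SNX2, SNX25, SNX13 and SNX22. Under HCT-116 there were 2 (3.23%, beside 4.6%), VPS9D1 higher and VPS25 lower. Arms did not overlap for 15 genes under MDA-MB-231, 4 higher and 11 lower, beside 18.5% of all genes (8.67% higher and 9.86% lower), and for 6 under HCT-116, beside 7%.

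The effect of H3B-8800 was compared between the 3 labels as an interaction in the same edgeR fit. A difference was called for 17 of the 62 genes, beside 15.4% of all tested genes. All 17 had been called under MHCC-97H, 11 higher and 6 lower. VPS54 had the smallest interaction p (adjusted p = 0.00932), followed by VPS13D, VPS72, SNX30 and VPS13A. In pairs, the effect under MHCC-97H differed from that under MDA-MB-231 for 22 genes, beside 20.2% of all, and from that under HCT-116 for 14, beside 13.2%. The effects under MDA-MB-231 and HCT-116 differed for 0, beside 0.0351%.

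The interaction count depended strongly on single libraries. It fell to 4 and 3 without DMSO replicates 2 and 3 of the MHCC-97H label, and to 6 and 7 without its H3B-8800 replicates 1 and 2. Over all tested genes the interaction calls in the same order were 670, 565, 899 and 781, beside 2197 with every library. The VPS and SNX count was 11 and 10 without DMSO replicates 1 and 2 of MDA-MB-231, 11 without its H3B-8800 replicate 3, and 11 without DMSO replicate 3 of HCT-116. Over all tested genes these settings gave 1282, 1306, 1326 and 1441.

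Levels in the DMSO libraries differed between the labels for most of these genes. In DMSO, 53 of 62 differed between the MHCC-97H label and the mean of the other labels, 21 higher and 32 lower, beside 84.6% of all tested genes (40.7% higher and 43.9% lower). The median log2 difference was -0.25 over the VPS and SNX genes and -0.08 over all genes. The split was 15 higher and 37 lower with scaling by library totals, beside 4954 and 7173 of all 14234 tested genes. Once the trend of GC and length was taken out it was 28 higher and 24 lower, beside 6322 and 5757 of all. The largest excess under MHCC-97H was that of SNX33 (log2 difference 3.76 ± 0.04, SE, edgeR adjusted p = 4.04e-19). It was followed by SNX24 (1.74), SNX22 (1.46), VPS29 (1.35), SNX21 (1.34), SNX11 (1.27), VPS9D1 (1.16), SNX15 (1.03), SNX3 (0.94) and SNX29 (0.90). The largest deficits were those of VPS13C (-3.82), VPS18 (-2.90), VPS8 (-2.73), SNX30 (-2.50), VPS4B (-2.34), VPS54 (-2.20), VPS41 (-2.10), SNX5 (-2.01), VPS13D (-1.98) and SNX16 (-1.94). DMSO libraries of MDA-MB-231 and HCT-116 differed in 0 of the 62 by edgeR, beside 0.0351% of all genes. At an unadjusted p under 0.05 there were 3 (SNX29, SNX27 and VPS37D), beside 4.13% of all genes.

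Per length, SNX33 led under MHCC-97H with 141 ± 3.8 RPKM (SD, n = 3), ahead of SNX3 with 112 ± 3.7, VPS29 with 41.1 ± 2.4, VPS4A with 30.6 ± 0.95 and VPS51 with 30.4 ± 1.2. The last pair differed by less than their spread. Under MDA-MB-231 and HCT-116 SNX3 led with 59.2 ± 2.5 and 58.2 ± 3.6 RPKM, ahead of SNX12 with 45.8 ± 1.5 and 47.1 ± 2.0. SNX33 was at 10.0 ± 0.11 and 10.7 ± 0.43 RPKM there. VPS13C was the lowest of the 62 under MHCC-97H, at 0.138 ± 0.032 RPKM, and stood at 2.01 ± 0.29 and 1.90 ± 0.71 under the other labels.

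**Figure D4:**
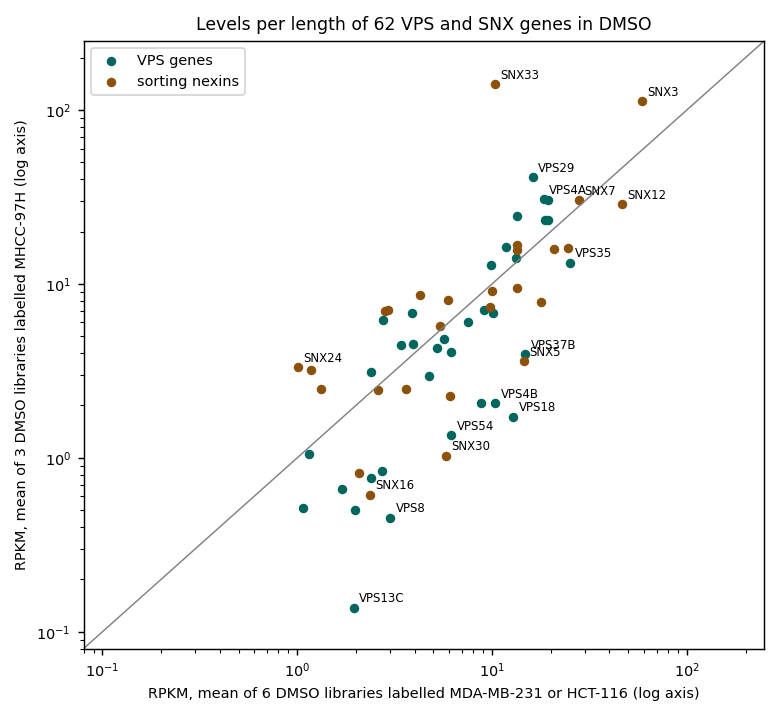
RPKM of the 62 tested genes in DMSO libraries (both axes log), mean of 3 libraries labelled MHCC-97H against mean of the 6 labelled MDA-MB-231 or HCT-116, with a line of equality. SNX33 lies far above the line, and VPS13C, VPS18 and VPS8 lie far below it.

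Paralogs differed in which copy prevailed. VPS4A exceeded VPS4B under every label, by 30.6 ± 0.95 against 2.05 ± 0.18 RPKM (SD, n = 3) under MHCC-97H and by 18.3 ± 0.86 against 10.2 ± 0.42 under MDA-MB-231. VPS37B stood at 3.93 ± 0.47 RPKM under MHCC-97H, below VPS37C with 6.05 ± 0.56. Its gap to VPS37A (4.43 ± 0.69) and VPS37D (4.50 ± 0.60) was within their spread. Under MDA-MB-231 VPS37B led all of them with 14.5 ± 0.90. SNX5 and SNX6, which can replace each other in ESCPE-1, stood at 3.60 ± 0.39 and 15.7 ± 0.93 RPKM under MHCC-97H and at 14.6 ± 0.51 and 13.5 ± 0.43 under MDA-MB-231. The order of VPS33A and VPS33B also turned, from 2.97 ± 0.31 and 6.84 ± 0.40 RPKM under MHCC-97H to 4.77 ± 0.16 and 3.83 ± 0.39 under MDA-MB-231.

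Most other pairs kept their order. SNX7 exceeded SNX30 by 30.2 ± 4.3 against 1.03 ± 0.23 RPKM under MHCC-97H and by 28.5 ± 0.53 against 5.86 ± 0.12 under MDA-MB-231. SNX17 exceeded SNX27, by 16.1 ± 0.81 against 2.28 ± 0.37 and by 24.0 ± 1.4 against 7.76 ± 2.4 RPKM. SNX2 and SNX1 stood at 7.39 ± 0.66 and 5.76 ± 0.21 RPKM under MHCC-97H and at 10.03 ± 0.47 and 5.60 ± 0.37 under MDA-MB-231. SNX9 exceeded its SH3-domain relative SNX18, by 16.7 ± 0.35 against 2.50 ± 0.068 RPKM under MHCC-97H and by 13.4 ± 0.46 against 3.59 ± 0.092 under MDA-MB-231. SNX33, a relative of both, did not keep its place. It stood above SNX9 under MHCC-97H, at 141 ± 3.8 RPKM, and below SNX9 under MDA-MB-231, at 10.0 ± 0.11. SNX25 and SNX14 (9.14 and 8.12 RPKM) exceeded SNX19 and SNX13 (2.45 and 0.823) under MHCC-97H. VPS26A exceeded VPS26B under MHCC-97H, at 16.2 ± 1.5 against 6.82 ± 0.62 RPKM, while under HCT-116 they stood at 10.3 ± 0.50 and 10.1 ± 0.88, a gap within their spread.

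SNX10 and SNX11 were close under MHCC-97H, at 7.91 ± 0.43 and 7.07 ± 0.54 RPKM, and far apart under MDA-MB-231, at 21.1 ± 1.5 and 2.81 ± 0.28. SNX21 stood at 7.01 ± 2.7 RPKM under MHCC-97H, while its relative SNX20 was not tested. VPS39, of HOPS, stood at 34.0 ± 0.54 CPM in DMSO under MHCC-97H, and its CORVET counterpart TGFBRAP1 rose by 0.27 ± 0.07 on the log2 scale after H3B-8800 (edgeR adjusted p = 0.0132).

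Some members took separate levels in libraries of the same group. In 7 genes the highest library of a group was at least 2 times the lowest: SNX22, SNX15, SNX27, SNX10, VPS13C, SNX24 and VPS13A. SNX27 stood at 156, 82.8 and 150.0 CPM in DMSO and 155, 69.0 and 141 after H3B-8800 under MDA-MB-231, and at 64.4 to 83.3 CPM in all 6 libraries labelled HCT-116. SNX10 stood at 79.8, 74.4 and 69.0 against 70.5, 70.4 and 27.6 CPM under MDA-MB-231, and at 32.4, 35.1 and 84.8 against 28.2, 63.2 and 82.6 under HCT-116. The SNX10 values lay either at or below 35.1 or at or above 63.2 CPM in these 12 libraries, and both levels occurred in both arms. Over the 62 genes, the median of the largest ratio within a group was 1.26.

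SNX15 was not the sole member with exons in common with another counted gene. Of the 65 genes, 22 share exonic bases with a gene of the table, 9 of them on the same strand, and the strand setting of the counting is not given in the sources used here. On the same strand these are SNX14 (with AL589666.1), SNX15, SNX5 (OVOL2), VPS16 (PTPRA), VPS33A (AC048338.1), VPS36 (THSD1), VPS4A (AC026464.4), VPS51 (TM7SF2) and VPS72 (TMOD4). TMOD4 shares 1842 bases, 40.5% of VPS72, but stood at 0.167 CPM in DMSO and 0.216 after H3B-8800 under MHCC-97H, far below VPS72. PTPRA shares 558 bases with VPS16 and stood at 33.8 CPM. THSD1 stood at 0.916 CPM and AC026464.4 at 1.90 CPM.

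On the opposite strand, IMP3 shares 801 bases with SNX33 and itself fell by 0.25 ± 0.07 under MHCC-97H (edgeR adjusted p = 0.0133), from 432 to 362 CPM, while SNX33 fell by 0.20. RPS18 stood at 4523 CPM in DMSO and shares 38 bases with VPS52. PPIB shares 519 bases with SNX22, ACOT8 1489 with SNX21, COG8 1245 with VPS4A, NCAPD3 249 with VPS26B and KNOP1 1678 with VPS35L. The remaining opposite-strand partners are ZNF513 (SNX17), PPIC (SNX24), LRP2BP (SNX25), SLC46A2 (SNX30), CFL1 (SNX32), MGME1 (SNX5), CNOT7 and MTMR7 (VPS37A), TMEM262 (VPS51), SCNM1 (VPS72) and ZNF276 (VPS9D1). The part of these overlaps in the changes was not tested, other than for SNX15. Without the 22 genes, 13 calls higher and 9 lower were left under MHCC-97H.

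The genes called higher and lower differed in base composition and length. The 16 called higher had a median transcript GC content of 41.2% and a median exonic length of 9645 bases, and the 15 called lower had 52.8% and 4878 bases. Median intron numbers were 25.5 and 8. Across the 62 genes the log2 change under MHCC-97H followed GC content with a Spearman coefficient of -0.67 and length with 0.50. Across 14223 genes these were -0.53 and 0.36. Genes are not independent replicates and share their libraries, so these are descriptions with no test. Under MDA-MB-231 the coefficient for GC content had the opposite sign, 0.52 across the 62 genes and 0.32 across all.

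With a trend of GC content and length removed from each library, 18 of the 62 genes were called under MHCC-97H, 6 higher and 12 lower. Calls also fell over all 14234 tested genes, from 3922 to 2093, with 974 higher and 1119 lower. Of the 18 genes, 14 were among the 31 with the same sign. The 6 higher were the 4 VPS13 genes, SNX30 and VPS54, at smaller log2 changes: 0.78 for VPS13A, 0.87 for VPS13C, 0.49 for VPS13B, 0.53 for VPS13D, 0.61 for SNX30 and 0.38 for VPS54. The 8 that remained lower were SNX15, SNX3, SNX33, SNX7, VPS26C, VPS29, VPS51 and VPS72. The other 4 were called lower only with the trend removed. They were SNX5 (-0.40, edgeR adjusted p = 0.0036), SNX14 (-0.38, adjusted p = 0.0153), VPS53 (-0.31, adjusted p = 0.00476) and VPS33A (-0.25, adjusted p = 0.043). The part of GC content and length in the unadjusted changes was not tested further.

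**Figure D5:**
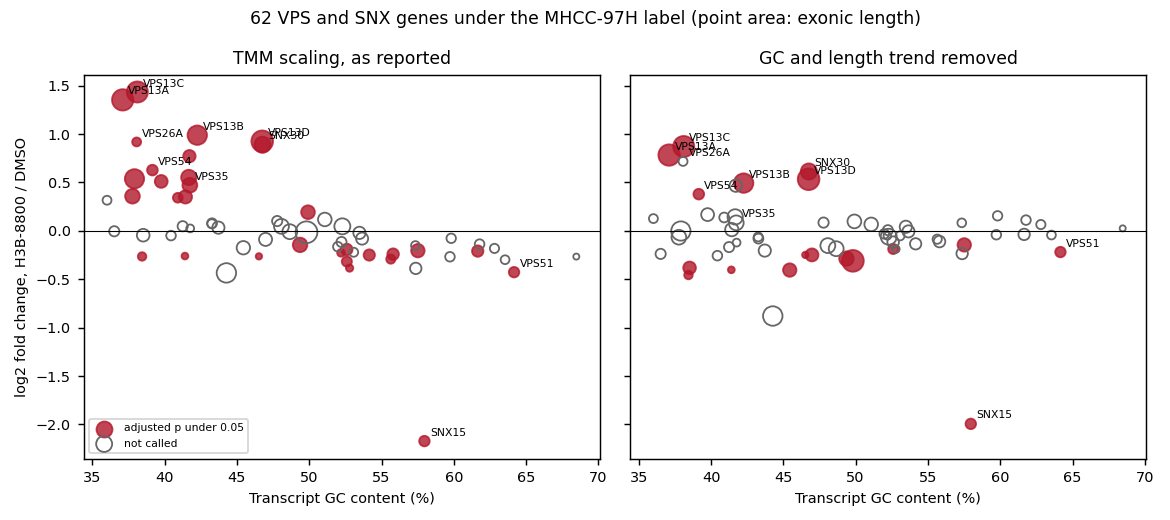
Log2 fold change of H3B-8800 against DMSO under the MHCC-97H label, against transcript GC content (%), for the 62 tested genes, with TMM scaling (left) and after removal of the trend in GC and length (right). Point area follows exonic length, and filled points have an adjusted p under 0.05. The slope from upper left to lower right is flatter in the right panel, where the VPS13 genes remain the highest with SNX30 and VPS26A.

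The proteins that work with these complexes were read from 4 lists. Of 74 partner genes, 13 were called higher (17.6%, beside 12.9% of all tested genes) and 13 lower (17.6%, beside 14.7%) under MHCC-97H, with a median log2 change of -0.09 beside -0.06 over all. Among 23 ESCRT partners 2 rose (8.7%) and 8 fell (34.8%). PDCD6IP (ALIX, an ESCRT adaptor) rose by 0.72 ± 0.12 (edgeR adjusted p = 0.00161) and the cargo receptor STAM by 0.43, while the ESCRT-III subunits CHMP4B and CHMP2A fell by 0.24 and 0.26.

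Among 21 partners of retromer and retriever 4 rose (19%) and 2 fell (9.52%), beside the same 12.9% and 14.7% of all genes. WASHC4 and WASHC5, subunits of the WASH complex that builds actin on endosomes, rose by 0.72 ± 0.13 (edgeR adjusted p = 0.00229) and 0.52. The 2 coiled-coil subunits of the CCC complex moved apart, with CCDC93 up by 0.67 and CCDC22 down, at -0.33. Among 20 tethering and phosphoinositide kinase genes 6 rose (30%) and 3 fell (15%). PIK3R4 (VPS15 in yeast), the regulatory subunit of the class III kinase, rose by 0.77 ± 0.15 (adjusted p = 0.00328), while the GTPase RAB5C and MON1B, of the RAB7 exchange factor, fell by 0.74 and 0.61. Of 10 cargo receptors only GOLIM4, a Golgi protein that cycles through endosomes, was called, with a rise of 0.43 ± 0.12 (adjusted p = 0.0171).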

How the data were processed

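The authors deposited unnormalized counts, whole numbers of reads for each Ensembl gene in each of 18 libraries. Per the submitters' processing notes, fastp, HISAT2 and the build GRCh38 were used. The counting tool, strand setting, annotation and versions are not given in the sources used. The main model, in edgeR 4.0.16 under R 4.3.3, had a mean for each group, TMM scaling, filterByExpr and the robust quasi-likelihood F test. Calls needed an adjusted p (Benjamini-Hochberg, 14234 genes) below 0.05. Scripts were tested on simulated data. Annotation was GENCODE 29, which held all 65 genes, and CPM was divided by exonic length for RPKM. The members, lists and tests were chosen with earlier results of these data known. Called members are all named, and the 12 with the smallest adjusted p and a mean of at least 10 CPM are given for every library. Alternatives included limma 3.58.1, DESeq2 1.42.0, other scalings and filters, and leaving out each library. Counting SNX15 with ARL2-SNX15 was added after seeing the data.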

Additional observations from a re-analysis of the deposited data

Results flagged for a closer look

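A difference of the H3B-8800 effect between the line labels, tested by the edgeR interaction over the 3 labels, singled out 17 VPS and SNX genes. The smallest adjusted p-values were those of VPS54 (0.00932), VPS13D (0.00942), VPS72 (0.0129), SNX30 (0.0147), VPS13A (0.0161) and SNX2 (0.0189). They were followed by SNX3 (0.0204), SNX33 (0.0225), VPS35 (0.0258), VPS4A (0.0259), VPS13B (0.0296) and VPS51 (0.0311). The largest were those of SNX13 (0.0337), VPS41 (0.036), VPS13C (0.0365), VPS8 (0.0413) and VPS37B (0.0474). All 17 had an estimate of the opposite sign under MDA-MB-231, and 16 under HCT-116, with no call under either label. These genes were chosen for a difference of effects, so the counts of signs are a description only. Among them, VPS54, SNX2 and SNX13 rose under MHCC-97H and stood at -0.35, -0.29 and -0.34 under MDA-MB-231. VPS13A and VPS13C stood lower there, at -0.53 and -0.45.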

How the results depend on the processing

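Under the MHCC-97H label the number of called VPS and SNX genes was 31 and fell to 18 (6 higher) with the GC and length trend removed, also together with the replicate block (18, 6 higher), and to 0 (0 higher, 0 lower) when tested by glmTreat against a log2 change of 1. Over all 14234 tested genes the calls were 3922, then 2093, 2565 and 2 in the same order. VPS and SNX calls lower were 8 with upper-quartile scaling, 3 with library totals, 8 with only the 6 libraries of the label, and 9 without genes that share exons with a counted gene. Over all tested genes, upper-quartile scaling, library totals and the 6 libraries gave 1301, 346 and 1749 lower, beside 2091 in the main fit. Leaving out each library gave 16 to 32 VPS and SNX calls, 7 to 16 higher and 6 to 16 lower, beside 2141 to 4455 calls over all tested genes. The interaction gave 10 VPS and SNX calls with the trend removed and 3 to 20 over single libraries left out. Over all tested genes these were 997 and 565 to 2784. The comparison of DMSO labels gave 19 VPS and SNX calls (4 higher, 15 lower) by glmTreat, beside 7055 of all 14234 tested genes. It gave 35 (9 higher) without genes that share exons, and 52 to 55 (20 to 23 higher, 32 to 33 lower) over libraries left out. Under MDA-MB-231 and HCT-116 every setting gave 0 calls of VPS and SNX genes. SNX13 and VPS50 changed sign with the trend removed, to -0.00129 and -0.0655, and with the block as well, to -0.00109 and -0.0662. The cause of these shifts was not tested. In every alternative but glmTreat, 7 genes were called under MHCC-97H: SNX30, VPS13A, VPS13B, VPS13D, VPS51, VPS54 and VPS72.

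Replicate numbers are not stated to mark a shared culture. Deviations of same-numbered libraries correlated at -0.05, 0.06 and 0.02 under MHCC-97H, 0.12, 0.07 and 0.02 under MDA-MB-231, and 0.05, 0.19 and 0.03 under HCT-116, so the samples were not treated as paired, and not every library correlated best with its own number. Over the 9233 genes averaging at least 10 CPM the HCT-116 values were 0.18, 0.45 and 0.13. With the replicate block 32 VPS and SNX genes were called under MHCC-97H (15 higher, 17 lower), 0 under the other labels, 20 by the interaction and 54 between DMSO labels. Over all 14234 tested genes the same fit called 4665 under MHCC-97H, 3585 by the interaction and 12146 between DMSO labels.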
